A study of Mus musculus with 6 samples.

Results

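The genes described here lie on a 9 Mb segment of mouse chromosome 1, from 127 to 136 Mb, that holds Map3k19 near its proximal end and Ctse near its middle. A row of the authors' FPKM table was taken as a member when it lay wholly inside the segment and its mean over the 6 libraries was at least 0.5 FPKM (fragments per kilobase of gene, scaled to the depth of the library, so that levels of genes can be compared per length). Of 173 rows in the segment, 98 lay under that level, and Cxcr4, Mcm6 and Btg2 were left out by name. The members are the remaining 72, out of 35275 rows in the table and 12527 rows at the same level. The segment was drawn around Map3k19 and Ctse with their values in the table of group means already known, so the values of that comparison are given as a description, and the counts of p-values and calls printed for it support nothing.

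The libraries came from splenic B cells of C57BL/6 mice aged 6 to 8 weeks, either wild type (WT) or carrying the altered CD40 ligand named CD40LΔ5. All mice, WT included, received sheep red blood cells (SRBC) and were sampled on day 8. B cells were enriched with a magnetic pan-B kit, and each genotype has 3 libraries. The labels do not say whether a library stands for 1 animal, so the p-values measure only the spread between these libraries, which may be technical.

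CD40 ligand is shown by T cells to CD40 on B cells and is needed for germinal centre responses to protein and cell antigens such as SRBC. The segment carries several gene families of B cell and mucosal immunity side by side, among them receptors that bind the Fc part of IgM and IgA, complement regulators and the interleukin-10 family of cytokines. Ctse encodes cathepsin E, an aspartic protease of the endosomes of antigen-presenting cells, and Map3k19 encodes a member of the MAP kinase kinase kinase family.

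The deposited sources place the libraries differently, and this bears on every direction below. The authors' table of means has a MUT and a WT column. The MUT column equals the mean of WT replicate 1, WT replicate 2 and CD40LΔ5 replicate 2, and the WT column that of WT replicate 3, CD40LΔ5 replicate 1 and CD40LΔ5 replicate 3, to within 3.33e-08 FPKM (the next best set of 3 libraries was off by up to 1341 FPKM). These sets are called the MUT-averaged and WT-averaged libraries here, and a library is always named by its label. Cd40lg itself, the gene of CD40 ligand, was near the limit of detection with 4 to 17 reads per library. It measured 0.533, 0.428 and 0.203 FPKM in WT and 0.118, 0.483 and 0.144 FPKM in CD40LΔ5 replicates 1, 2 and 3. By the label its values overlapped, but every MUT-averaged library (17, 13 and 15 reads) was above every WT-averaged one (7, 4 and 5 reads). At so few reads this does not settle which placement of the libraries is right, and that was not tested. Reads on genes ranged from 24320080 to 27866611 per library, and a single read on a gene of 1 kb amounts to 0.0359 to 0.0411 FPKM. The summed level of 8 B cell marker genes was 4390 to 5073 FPKM. Marker sums of natural killer cells (44.7 to 55.7 FPKM against 21.5 to 32.8) and of interferon-response genes (76.4 to 165 against 43.9 to 53.5) were higher in every MUT-averaged than in every WT-averaged library. Those of germinal centre, marginal zone, plasma, T, macrophage, neutrophil, erythroid and B cells overlapped between the sets. By single markers, 3 of 6 natural killer, 7 of 8 interferon-response and 5 of 8 T cell genes were higher in every MUT-averaged library. So were 2 of 8 B cell genes, 1 of 7 macrophage genes and 2 of 7 marginal zone rows. Of all genes at the level for membership, 12.5% were. Lower in every MUT-averaged library were 2 of 8 germinal centre genes (Mki67 and Polh) and 1 of 8 neutrophil genes, against 4.53% of all genes at that level. The T cell sum (48.1 to 51.1 against 38.8 to 49.5 FPKM) has Lck as its largest part, whose values overlapped. None of these marker genes was at 0 FPKM in all libraries. The part of other cells in the results below was not tested, and in bulk RNA fewer cells of a type and less RNA per cell cannot be told apart.

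Map3k19 had the largest ratio of highest to lowest library among the members, 106 against 20.5 for the next, Chil1, although Chil1 had the larger coefficient of variation (122% against 108%). Map3k19 measured 2.01 FPKM in WT replicate 1, 2.34 in WT replicate 2 and 2.89 in CD40LΔ5 replicate 2, and 0.0274 FPKM in WT replicate 3, 0.0371 in CD40LΔ5 replicate 1 and 0.0633 in CD40LΔ5 replicate 3. The same libraries held 204, 226 and 285 reads on the gene in the first case and 3, 4 and 7 reads in the second. No library lay between these levels, and each genotype label had libraries at both: the high level was found in 2 of the 3 WT libraries and in 1 of the 3 CD40LΔ5 libraries. Pooled over the sets, 715 reads stood against 14, a ratio of 56.5 per read sequenced (exact 95% interval 33.5 to 104, which covers counting error only). The log2 difference between the sets was 1.70 ± 0.15 (SE). Like all log2 differences here it was taken after adding 1 FPKM, which makes it smaller than the ratio for a gene this low. Map3k19 (ENSMUSG00000051590) is listed at 127815253 to 127840321 on the minus strand of GRCm38, and no other listed gene shares exon bases with it.

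Tmem163, which encodes a zinc transporter of vesicle membranes, lies at lower coordinates in the same megabase and had the opposite order. It measured 23.3, 22.8 and 24.1 FPKM in WT replicates 1 and 2 and CD40LΔ5 replicate 2, and 41.2, 41.0 and 36.2 FPKM in WT replicate 3 and CD40LΔ5 replicates 1 and 3. The MUT-averaged libraries were thus close to each other and under all WT-averaged ones, with means of 23.4 ± 0.636 against 39.5 ± 2.81 FPKM (SD, n = 3) and a ratio of 1.69 in favour of the WT-averaged set. Ctse, further along the segment, had the same order at a higher level. It measured 68.5, 68.9 and 62.9 FPKM in the MUT-averaged libraries and 114.9, 99.6 and 120.4 FPKM in the WT-averaged ones, in the library order just given. Again no library lay between the sets, whose means were 66.8 ± 3.35 and 112 ± 10.8 FPKM (SD, n = 3). The log2 difference was -0.73 for both genes (SE 0.08 for Tmem163 and 0.10 for Ctse).

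Between Tmem163 and Map3k19 lies Ccnt2, the gene of cyclin T2, a partner of the elongation kinase CDK9, and only 7191 bases separate it from Map3k19. Ccnt2 measured 13.98, 16.4 and 20.1 FPKM in the MUT-averaged libraries and 12.8, 14.9 and 11.7 FPKM in the WT-averaged ones, so its sets overlapped. On the other side, 28451 bases away, Rab3gap1, a regulator of Rab3 and Rab18 GTPases, measured 23.3, 19.0 and 23.9 against 19.3, 20.4 and 19.9 FPKM. Its sets overlapped as well. Fam72a, 98433 bases before Ctse, had overlapping sets but lower means in the same set, 0.714 ± 0.303 against 1.30 ± 0.332 FPKM (SD, n = 3), a ratio of 1.82 against 1.67 for Ctse. Slc41a1, a magnesium transporter 151987 bases after Ctse, measured 9.58 to 9.70 against 10.7 to 11.5 FPKM (log2 difference -0.17 ± 0.07 SE).

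**Figure D1:**
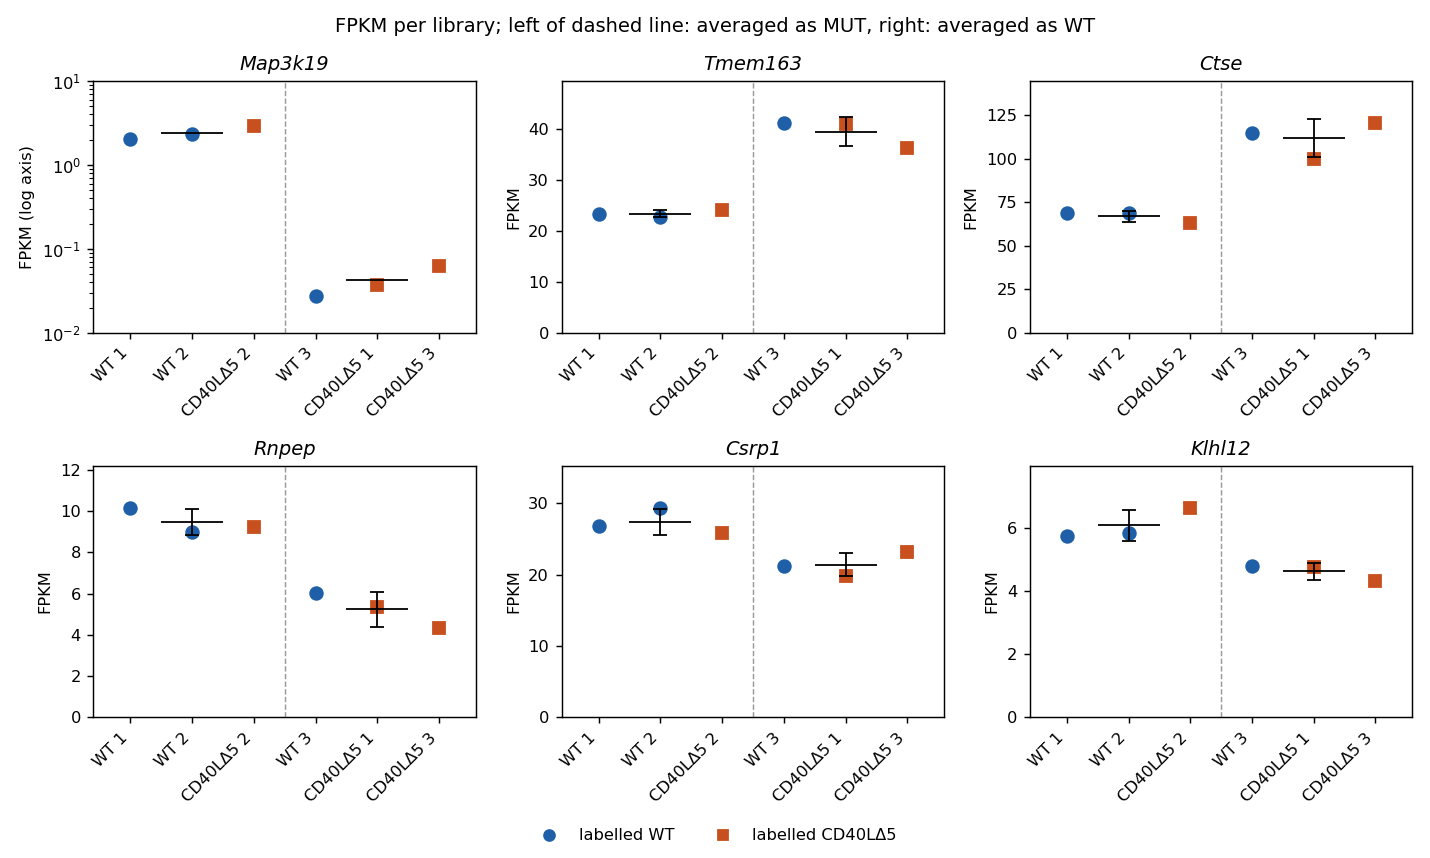
FPKM of 6 members in each library (points; circles labelled WT, squares labelled CD40LΔ5), with the mean and SD of the MUT-averaged and the WT-averaged libraries as lines; the Map3k19 axis is logarithmic and its SD is not drawn. In each panel the 3 libraries left of the dashed line stand apart from the 3 on the right, and each side holds both symbols.

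Rnpep, the gene of aminopeptidase B, had the largest log2 difference of the protein-coding members after Map3k19, on the log2(FPKM + 1) scale. By the ratio of means, Chil1 and Fam72a, both near or under 1 FPKM, differed more. Rnpep measured 10.2, 8.99 and 9.20 FPKM in the MUT-averaged libraries and 6.04, 5.34 and 4.31 FPKM in the WT-averaged ones. All 3 of the first set were higher, by a ratio of means of 1.81 (log2 difference 0.75 ± 0.12 SE). Rnpep (ENSMUSG00000041926) lies at 135262712 to 135284084 on the minus strand, near the distal end of the segment. Csrp1, a LIM-domain protein of the actin cytoskeleton, is the most distal member. It stood at 26.8, 29.4 and 25.8 FPKM in the MUT-averaged against 21.2, 19.8 and 23.2 FPKM in the WT-averaged libraries, which do not overlap (log2 difference 0.34 ± 0.09 SE). Klhl12, an adaptor of CUL3 ubiquitin ligases, stood at 5.75, 5.84 and 6.64 against 4.79, 4.76 and 4.32 FPKM, also without overlap (log2 difference 0.33 ± 0.09 SE).

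A further 4 members had sets that did not overlap and a log2 difference of at least 0.3, all higher in the MUT-averaged libraries. Il24, an interleukin-10 family cytokine and the only one of the 4 such genes searched that reached the level for membership, measured 1.52, 1.29 and 2.04 against 0.859, 0.934 and 1.15 FPKM on 28 to 60 reads per library. Dstyk, a dual-specificity kinase, measured 3.13, 2.86 and 3.96 against 2.27, 2.70 and 2.21 FPKM. The other two are noncoding. RP23-217K18.4, a lincRNA, measured 12.0, 15.6 and 21.1 against 6.85, 11.9 and 8.34 FPKM, where WT replicate 1 and CD40LΔ5 replicate 1 nearly met. Gm15848, an antisense gene at the Fcamr locus, measured 10.8, 10.6 and 15 against 6.97, 10.2 and 6.21 FPKM, where WT replicate 2 and CD40LΔ5 replicate 1 were close.

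In all, 18 of the 72 members (25%) had sets that did not overlap. Of these, 12 were higher in every MUT-averaged library, while 12.5% of the 12527 genes at the same level were. The other 6 were lower in every MUT-averaged library, against 4.53% of those genes. These 6 are Tmem163, Ctse, Slc41a1, Nucks1 (a nuclear DNA-binding phosphoprotein), Ppp1r15b (a subunit that directs a phosphatase to eIF2alpha) and Ipo9 (an importin). Besides the 8 higher members with values above, the higher ones are Dars, Rab29 and the pseudogenes RP23-323H18.3 and RP23-393D20.3. Among the 65 members with a mean of at least 1 FPKM, which entered the fit, 17 (26.2%) did not overlap against 16.9% of 11252 genes, and 10 (15.4%) also had a log2 difference of at least 0.3 against 7.08%. With median-of-ratios scaling the 12 higher and 6 lower members became 10 and 6, and with the trend on gene length removed 11 and 9. Without CD40LΔ5 replicate 1 the 17 became 32, and without WT replicate 1 they became 28, where fewer libraries must be separated. The share over all genes was not counted under these scalings or without these libraries. These changes are therefore no result about the members.

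The same fit, limma on log2(FPKM + 1), put 14 members under an unadjusted p of 0.05 between these sets (10 higher and 4 lower), against 13% of all genes tested. With median-of-ratios scaling the split was 9 higher and 7 lower, and with the trend on gene length removed 8 higher and 7 lower. Map3k19 was the one member under an adjusted p of 0.05, where 0.0267% of all genes were. This call rests on the values for which the segment was drawn and on a gene whose mean reached 1 FPKM only through the MUT-averaged libraries. It was lost without the filter on low values, kept without CD40LΔ5 replicate 1 and lost without any one of the other 5 libraries, with log2 differences from 1.61 to 1.79 throughout. Since the segment was chosen for this comparison, these counts describe it and test nothing. The median log2 difference of the members was 0.099, and that of all genes tested 0.049. Under median-of-ratios scaling, 36 of the 65 members had a log2 difference above 0 in place of 43.

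Members with sets that did not overlap were spread along the segment. The megabases starting at 127, 130, 132 and 135 Mb held 3, 2, 2 and 3 of them. Those at 128 and 134 Mb held 1 each, and that at 133 Mb held 1 higher and 1 lower. The megabase at 131 Mb held 4, Ctse, Slc41a1, Rab29 and Nucks1, which follow one another with no other member between them. Of these, Rab29 was higher in the MUT-averaged libraries and the rest lower. The megabase at 129 Mb had a single member and none. A window of the same length before the segment, from 118 to 127 Mb, has 17 genes in the fit, of which 3 (17.6%) did not overlap and 0 did so with a log2 difference of at least 0.3. One after it, from 136 to 145 Mb, has 19, of which 7 (36.8%) did not overlap and 4 (21.1%) also passed 0.3. One of these, Rgs18, a regulator of G-protein signalling, had a log2 difference of 1.52 ± 0.12 (SE) and the same limma adjusted p as Map3k19 (0.0293). The difference between the segment and these windows was not tested.

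**Figure D2:**
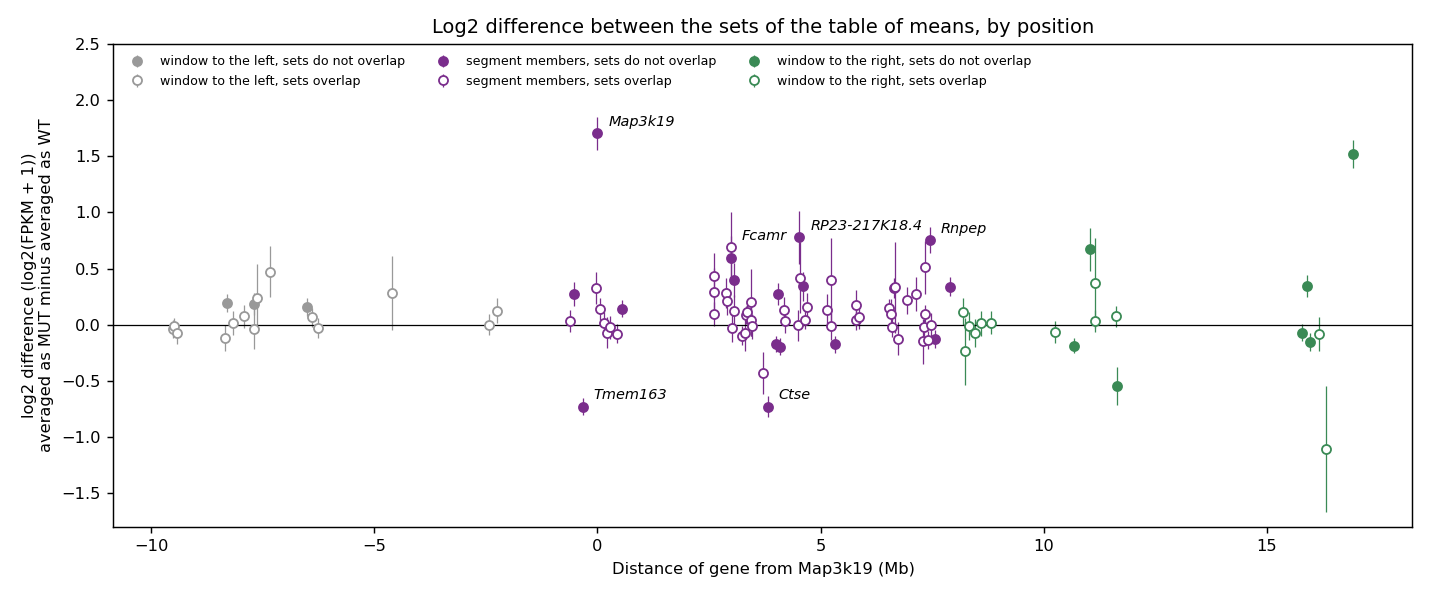
Log2 difference (MUT-averaged minus WT-averaged, log2(FPKM + 1) scale, bars SE) of tested genes by distance from Map3k19 in Mb, for the segment and the windows on either side; filled points have sets that do not overlap. Map3k19 stands at 1.70, and Tmem163 and Ctse both at -0.73. Ctse, Slc41a1, Rab29 and Nucks1 are filled points in a row. Elsewhere in the segment, filled points lie among runs of open points, some of them side by side.

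RefSeq promoter windows (250 bases before to 50 after the start, GRCm38.p6) were matched to 52 of the 72 members. Map3k19 and Ctse had no such window. Those of 4 other members whose sets did not overlap are shown. Tmem163 was lower in the MUT-averaged libraries, and Rnpep, Csrp1 and Klhl12 were higher. Capitals mark any match to TATAAA (the core promoter box), ATTTGCAT (octamer), CACGTG (E-box) or GGGCGG (GC box), searched on both strands. None of the matches shown overlap. The windows are chr1:127677972-127678271 for Tmem163 and chr1:135284035-135284334 for Rnpep, both on the minus strand, and chr1:135719813-135720112 for Csrp1 and chr1:134455281-134455580 for Klhl12, both on the plus strand.
Tmem163: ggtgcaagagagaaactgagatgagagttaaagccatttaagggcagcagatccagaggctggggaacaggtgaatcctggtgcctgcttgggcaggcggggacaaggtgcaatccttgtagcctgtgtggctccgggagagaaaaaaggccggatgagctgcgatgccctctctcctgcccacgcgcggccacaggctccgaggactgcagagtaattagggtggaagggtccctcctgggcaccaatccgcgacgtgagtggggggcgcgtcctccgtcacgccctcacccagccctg
Rnpep: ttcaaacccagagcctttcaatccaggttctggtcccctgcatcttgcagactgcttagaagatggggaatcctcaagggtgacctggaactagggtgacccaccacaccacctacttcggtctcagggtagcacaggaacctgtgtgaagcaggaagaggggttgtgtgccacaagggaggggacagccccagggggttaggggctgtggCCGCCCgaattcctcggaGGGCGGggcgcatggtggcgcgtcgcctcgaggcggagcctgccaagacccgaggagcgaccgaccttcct
Csrp1: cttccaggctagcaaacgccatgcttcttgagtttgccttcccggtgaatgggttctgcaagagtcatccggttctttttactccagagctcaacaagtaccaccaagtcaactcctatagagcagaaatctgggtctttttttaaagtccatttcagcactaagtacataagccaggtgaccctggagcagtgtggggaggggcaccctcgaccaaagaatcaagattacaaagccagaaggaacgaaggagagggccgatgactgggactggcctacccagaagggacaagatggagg
Klhl12: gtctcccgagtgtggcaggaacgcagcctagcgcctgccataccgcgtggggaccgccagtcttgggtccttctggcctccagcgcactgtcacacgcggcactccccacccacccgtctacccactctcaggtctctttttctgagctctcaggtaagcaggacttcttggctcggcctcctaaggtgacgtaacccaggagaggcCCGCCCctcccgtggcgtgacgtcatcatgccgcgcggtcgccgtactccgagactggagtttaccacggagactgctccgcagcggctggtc
The Rnpep window holds 2 GC boxes, one on each strand, and the Klhl12 window 1. Those of Tmem163, whose RefSeq start lies 1527 bases from the gene end listed in the table, and Csrp1 hold none of these letters. Across the 52 members, 28 (53.8%) had a GC box, while 35.7% of all 32851 promoter windows did. An E-box was found in 1 member, Pigr (7.15% of all windows), and TATAAA or an octamer in 0 (13.6% and 1.74% of all windows). The median number of CG dinucleotides was 17 in the members and 7 in all windows. The RefSeq starts of Rassf5, which counts among the GC box windows, Atp2b4, Pfkfb2 and Gm15848 lie 45073, 47294, 13205 and 6686 bases from the deposited gene starts. Each member gave only its nearest window, while the shares over all windows count every window listed for a gene. These shares describe the windows, and members were chosen partly by level, which the other windows were not.

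By the labels, no tested member passed the test between the genotypes. With limma on log2(FPKM + 1) and Benjamini-Hochberg adjustment, adjusted p was under 0.05 for 0 of 65 members and 0% of 11252 genes, and voom on the recovered reads also called 0. At an unadjusted p under 0.05 there were 0 members, against 1.24% of all genes. Mfsd4, a membrane transporter of the major facilitator family, was the one tested member with groups that did not overlap, against 4.29% of all genes tested. It measured 24.5, 22.8 and 22.7 FPKM in WT and 26.7, 28.8 and 24.6 FPKM in CD40LΔ5 replicates 1, 2 and 3, so that the closest libraries of the groups nearly met (limma adjusted p = 1, log2 difference 0.18 ± 0.09 SE). Ppfia4, under the level for testing, also had groups that did not overlap. It measured 0.781, 1.03 and 0.759 FPKM in WT and 0.667, 0.730 and 0.627 FPKM in CD40LΔ5. With untested members included, 2.78% of the 72 did not overlap, against 4.48% of the 12527 genes at the level for membership. The members that differed most between the sets of the table were spread within each genotype. Map3k19 averaged 1.46 ± 1.25 FPKM in WT and 0.998 ± 1.64 FPKM in CD40LΔ5 (SD, n = 3), Tmem163 29.1 ± 10.5 and 33.8 ± 8.75 FPKM, and Ctse 84.1 ± 26.7 and 94.3 ± 29.1 FPKM.

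The other members of smallest p by the labels were RP23-31H15.3, Gm15674, Rabif and Elk4. Rabif, which encodes a protein that binds Rab GTPases, had a single high library: CD40LΔ5 replicate 2 stood at 26.8 FPKM, while the remaining 5 ranged from 8.28 to 13.2 FPKM. RP23-31H15.3, a low antisense gene, measured 0.646, 1.24 and 0.299 FPKM in WT and 1.01, 1.77 and 1.58 FPKM in CD40LΔ5 on 3 to 16 reads per library. Elk4, an ETS factor that partners the serum response factor, measured 37.3, 33.9 and 32.5 FPKM in WT and 37.6, 45.2 and 35.6 FPKM in CD40LΔ5. The limma adjusted p was 1 for all of them.

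The members covered a wide range of levels on the FPKM scale, which is per length. Their means ran from 0.519 FPKM (the pseudogene Rpl31-ps9) to 638 FPKM (Faim3), with a median of 10.1. Of the 72, 36 reached a mean of 10 FPKM and 6 reached 50. The lowest members were Rpl31-ps9, Atp2b4 (0.531) and Chil1 (0.554), and the nearest rows under the level were Phlda3 (0.452) and others at 0.348 and 0.338 FPKM. Most members were steady: the median coefficient of variation over the 6 libraries was 14.4%, and in 37 the highest library was under 1.5 times the lowest. Zranb3, a remodeller of stalled replication forks, and Ptpn7, a tyrosine phosphatase of blood cells, were the steadiest, with ratios of highest to lowest library of 1.11 and 1.13.

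**Figure D3:**
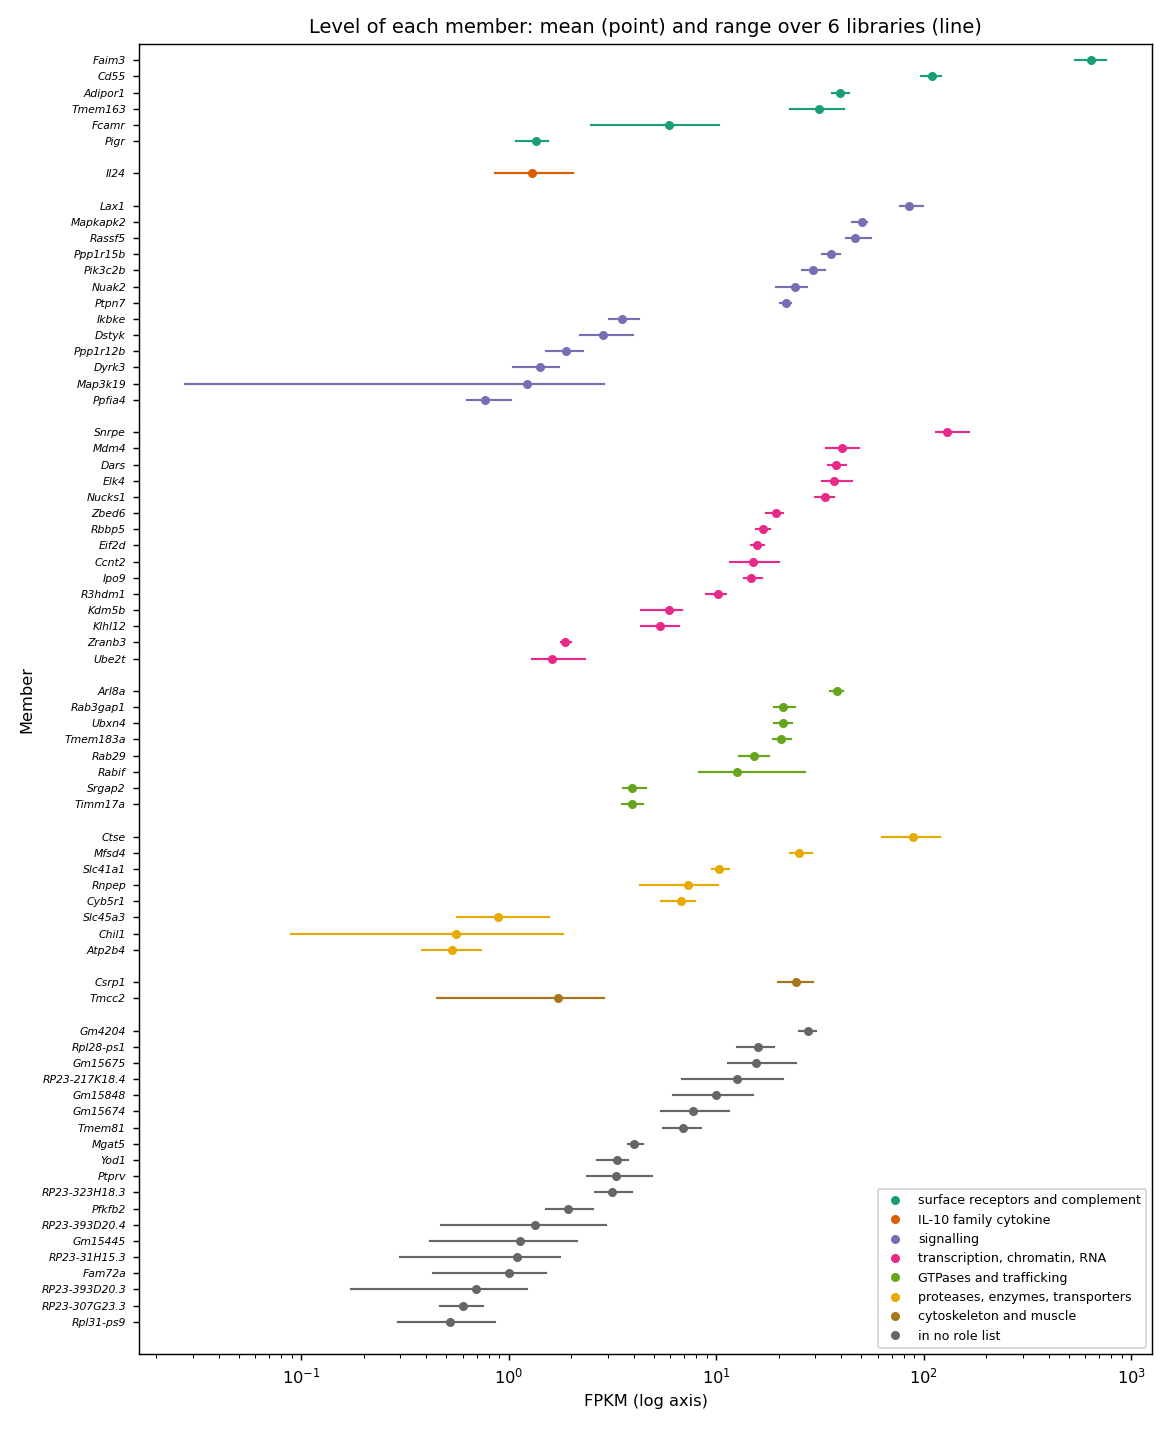
Mean FPKM (points) and range over the 6 libraries (lines) of the 72 members by role, on a log axis. Faim3 is highest at 638 FPKM, and the line of Map3k19, from 0.0274 to 2.89 FPKM, is the longest.

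Among receptors and complement genes, 6 of the 17 genes listed were members and none passed the test by the labels. Faim3, the Fc receptor for IgM (also named Fcmr), measured 760, 538 and 581 FPKM in WT and 612, 704 and 632 FPKM in CD40LΔ5 replicates 1, 2 and 3, with the CD40LΔ5 values inside the WT range. Cd55, the decay-accelerating factor that limits complement on the cell surface, measured 118, 99.9 and 96.7 FPKM in WT and 107, 122 and 113 FPKM in CD40LΔ5. Adipor1, an adiponectin receptor, ranged from 36.2 to 43.8 FPKM. Fcamr, the receptor for the Fc part of IgA and IgM, varied more, with 5.15, 7.05 and 4.11 FPKM in WT and 6.46, 10.3 and 2.48 FPKM in CD40LΔ5. Pigr, which carries polymeric IgA and IgM across epithelia, was low at 1.09 to 1.55 FPKM. Tmem163 was the one member of this list with sets of the table that did not overlap.

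Of 17 signalling genes, 13 were members. Lax1, a membrane adaptor that dampens lymphocyte receptor signals, measured 77.3 to 99.2 FPKM, Mapkapk2, a kinase downstream of p38, 45.1 to 53.4 FPKM, and Rassf5, an effector of Rap1 in integrin activation, 42.0 to 55.8 FPKM. Map3k19 and Dstyk were higher and Ppp1r15b lower in every MUT-averaged library, and the other 10 overlapped. Ppp1r15b measured 32.5, 32.9 and 34.9 against 38.2, 39.7 and 35.8 FPKM, so that CD40LΔ5 replicates 2 and 3 nearly met. Ikbke, a kinase of innate signalling, was steady at 3.03 to 4.25 FPKM.

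Genes of transcription, chromatin and RNA made up the longest list, with 15 of 19 as members. Snrpe, a core protein of spliceosomal particles, measured 120, 165 and 115 FPKM in WT and 121, 132 and 129 FPKM in CD40LΔ5, with WT replicate 2 high. Mdm4, an inhibitor of p53, ranged from 33.8 to 48.9 FPKM and Dars, the aspartyl-tRNA synthetase, from 34.4 to 42.4 FPKM. Dars and Klhl12 were higher and Nucks1 and Ipo9 lower in every MUT-averaged library. Nucks1 measured 32.6, 30.9 and 30.0 against 36.2, 37.1 and 34.1 FPKM (log2 difference -0.19 ± 0.07 SE). The median log2 difference of the list was 0.08 between the sets and 0.03 by the labels.

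Of 13 genes for small GTPases and trafficking, 8 were members, with Arl8a, a GTPase of lysosomes, at 35.5 to 41.0 FPKM and Ubxn4, an endoplasmic reticulum protein of protein degradation, at 18.9 to 23.1 FPKM. Rab29, a GTPase of the Golgi and lysosomes, was the one without overlap, at 14.7, 17.5 and 18.0 against 12.9, 14.4 and 13.7 FPKM. Proteases, enzymes and transporters gave 8 members of 15 genes, 5 of them tested. Besides Ctse, Slc41a1 and Rnpep, none of these separated the sets. Chil1, a chitinase-like protein, measured 0.788 FPKM in WT replicate 3 and 1.83 FPKM in CD40LΔ5 replicate 3 and 0.0894 to 0.213 FPKM in the other 4 libraries. The summed level of 8 neutrophil markers was 336 and 580 FPKM in the same 2 libraries and at most 81.8 FPKM in the others. Of 19 cytoskeletal and muscle genes, Csrp1 and Tmcc2 were members, and Tmcc2 varied from 0.450 to 2.89 FPKM with overlapping sets.

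The order of the libraries by a member was compared with that by each of 10 marker sums. It was the same as one of them for 3 of 72 members (4.17%) and for 3.3% of all genes at the level for membership, so the members are near the background. Fam72a, a protein known to oppose uracil repair in B cells during hypermutation, measured 0.429, 1.03 and 1.47 FPKM in WT and 1.51, 0.680 and 0.917 FPKM in CD40LΔ5 replicates 1, 2 and 3. The summed level of 8 germinal centre markers was 51.9, 123 and 164 FPKM in WT and 174, 60.9 and 104 FPKM in CD40LΔ5, which ranks the 6 libraries in the same order, as it did for 0.447% of those genes. Il24 ranked them as the interferon-response sum did (0.495% of genes), and Ppp1r12b as the marginal zone sum did (0.367%). Neither Map3k19, Tmem163, Ctse nor Rnpep ranked them exactly as any of the 10 sums did. The match asks for the same order of all 6 libraries and is lost by a swap of close values, so nothing is concluded from a miss. Map3k19 ranked the libraries as the interferon-response sum did, except for WT replicates 1 and 2. These measured 2.01 and 2.34 FPKM for Map3k19, and 78.3 and 76.4 FPKM for the sum. This looser match was looked at for Map3k19 alone, and its share over all genes was not counted. The segment was chosen with the split of these sets known, and the low libraries held 3, 4 and 7 Map3k19 reads. A relation between the gene and the sum was therefore not tested, and none is read from these values.

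Noncoding members leaned to one library. All 7 antisense and lincRNA members were highest in CD40LΔ5 replicate 2, and 62.3% of the 546 other such genes at the same level were too. Gm15675, a lincRNA beside Cd55, measured 14.7, 15.3 and 11.9 FPKM in WT and 15.4, 24.3 and 11.4 FPKM in CD40LΔ5 replicates 1, 2 and 3. It shares 1087 exon bases, of a length of 3681, with the antisense gene Gm15674, of length 2438. Gm15674 measured 6.68, 7.76 and 5.43 FPKM in WT and 8.45, 11.5 and 6.55 FPKM in CD40LΔ5. The kit does not mark the strand, so reads within the shared bases cannot be told apart. Gm15445, an antisense gene, measured 0.844, 1.57 and 0.781 FPKM in WT and 1.04, 2.14 and 0.417 FPKM in CD40LΔ5. In all, 21 members share exon bases with another row, among them Tmem163 with Mgat5 (152 bases) and Elk4 with Mfsd4 (84 bases). Of the 6 pseudogenes, Rpl28-ps1 (12.6 to 18.9 FPKM) and Gm4204 (25.02 to 30.3 FPKM) are highest, and reads of such genes may belong to near-identical copies, so their levels are uncertain. Of the 58 protein-coding members, 21 (36.2%) were highest in CD40LΔ5 replicate 2, against 28.7% of the other protein-coding genes at that level.

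**Figure D4:**
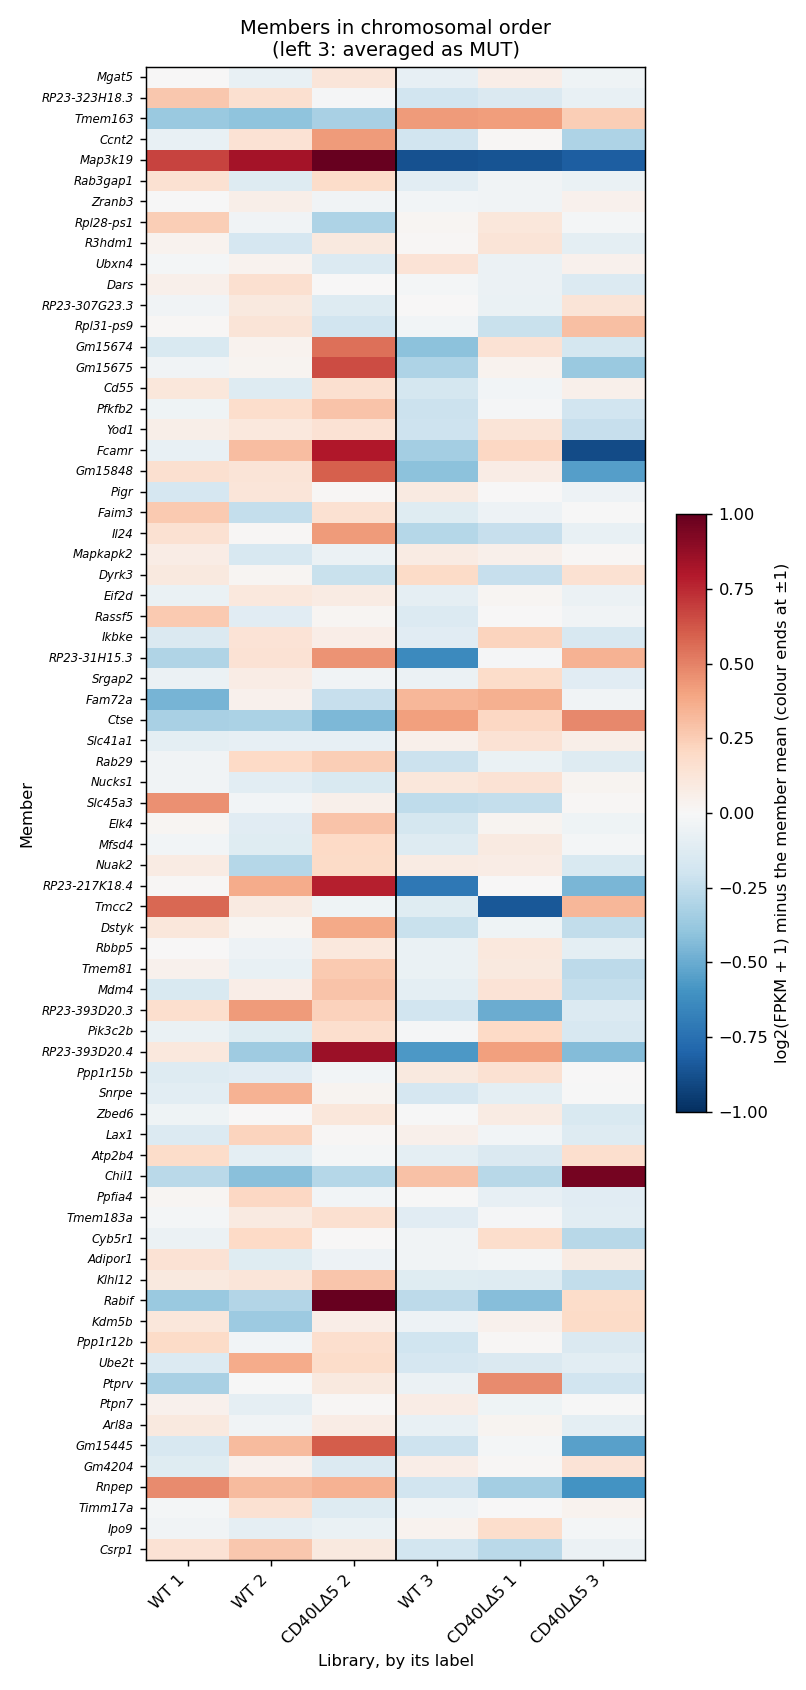
Log2(FPKM + 1) of the 72 members in chromosomal order, each minus its own mean over the 6 libraries, with the MUT-averaged libraries left of the line (colours end at ±1). Map3k19, Tmem163, Ctse and Rnpep change colour at the line, while noncoding members such as Gm15675 are darkest red in CD40LΔ5 replicate 2.

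The 39 members not chosen for naming had means of 0.519 to 35.7 FPKM. Of these, 32 were tested. Their log2 differences ran from -0.19 to 0.40 between the sets of the table and from -0.21 to 0.55 by the labels, with RP23-393D20.4, an antisense gene of 6 to 34 reads per library, at both upper ends.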

How the data were processed

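The authors deposited an FPKM for every gene in each library, and a table of means in the same unit. CASAVA 1.8.2, STAR and DESeq2 are named in the submitters' processing notes, with no statement of what each did. The notes give the build as mm9, but the deposited coordinates of 70 of the 72 members equal those of GENCODE M21 on GRCm38, and are printed as deposited. How reads were counted, and on which annotation, is not given in the sources used here. Per the labels' protocols, libraries were made with a TruSeq kit, which does not mark the strand. FPKM times gene length was divided by the smallest nonzero product of the same library, taken as a single read. This gave whole reads for 100% of values (tolerance 0.01 reads). These reads were used for depth, voom, the read counts printed here and the pooled ratio of Map3k19. The 11252 genes whose mean reached 1 FPKM were fitted with limma 3.58.1 (trend) in R 4.3.3 on log2(FPKM + 1), two-sided, threshold 0.05 after Benjamini-Hochberg adjustment, once by the labels and once by the 3 libraries behind each column of the means. The procedure was tested on simulated data. Alternatives were other pseudocounts and filters, scaling, variance settings, voom, gene length (loess, span 0.3), a replicate block and leaving out each library.

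The members, gene lists and tests were chosen with earlier results of these data known. Named are Map3k19, Ctse and Tmem163, members without overlap and a log2 difference of at least 0.3 in the sets of the table, the 10 largest differences there, the 5 smallest p by the labels and each role list's most abundant members (up to 3). Other members named beside them (neighbours, members that did not overlap, Chil1, Ppfia4), the motifs and the rank match were chosen after their values were seen.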

Additional observations from a re-analysis of the deposited data

How the results depend on the processing

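By the labels, 0 members and 0 genes were called with limma under each alternative run. Whether the replicate numbers of the labels pair the libraries was not tested. Correlations were taken between deviations of log2(FPKM + 1) from the mean of each genotype's libraries, not between the levels themselves. Such deviations cancel within a genotype, so correlations of mixed sign arise by construction. Those of same-numbered libraries were -0.38, 0.06 and 0.38, with 2 of the 3 WT libraries correlating best with their own number. The highest correlation was 0.56, of WT replicate 1 with CD40LΔ5 replicate 2. The fit with the replicate block called 0 members and 0 genes. Between the sets of the table, the 1 member called became 0 without a filter on low values, and 2 with median-of-ratios scaling or with the gene length trend removed, which both added Tmem163 (adjusted p = 0.0338 and 0.0335; 0.0335 to 0.445 over its alternatives). It was 0 to 1 when a library was left out. The 3 genes called in all became 5 with a pseudocount of 0.1, 1 without a filter, 6 with median-of-ratios scaling, 1 with voom, and 1 to 17 when a library was left out. The 17 tested members without overlap became 17 to 32 when a library was left out, where fewer libraries must be separated, and 15 to 18 otherwise. The share over all genes was not counted for the left-out libraries or the other scalings. The adjusted p of Map3k19 ranged from 0.00863 to 0.173 over its alternatives. The cause of these changes was otherwise not tested. Among 33 named members, the sign of the log2 difference changed in 42 of 495 values by the labels and in 13 of 462 between the sets (Adipor1, Arl8a, Lax1, Mfsd4, RP23-31H15.3 and Rabif), none of them called. With 3 libraries a set and 3 to 7 reads on Map3k19 in the low libraries, its level there is known only within counting error.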
